A study of Homo sapiens with 13 samples.

Results

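The short arm of human chromosome 3 was represented by 312 of the 11963 genes measured on 13 Affymetrix arrays. The RNA came from cultured human cells of non-small cell lung carcinoma. These are the genes on chromosome 3 whose start lies below 90 Mb in assembly GRCh38, without SUSD5, each read from the probe set with the highest mean signal over the 13 arrays. Another 342 genes lay on the rest of the chromosome and 11275 on other chromosomes. The arm was singled out because genes of chromosome 3 had low signals in the line M5 on these same arrays. Its level in M5 is therefore a description, with counts but no p-value, and p-values are given only for the lines M1 and M4 and for the luciferase reporter.

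The study asked which genes differ in lung carcinoma cells that colonise bone. Control cells were injected into the heart of mice, cells that had formed bone metastases were isolated, and their activity was assessed again in newly injected mice. RNA of 2 arrays came from control cells without a luciferase reporter and RNA of 2 arrays from control cells with it. The metastatic lines M1, M4 and M5 had 3 arrays each, all described as biological replicates, and every array held a pool of 3 groups of cells. The labels do not name the parental line, do not say whether M1, M4 and M5 carry luciferase, and give no other treatment. Each metastatic line is 1 isolate, so a feature of M5 cannot be told apart from a feature of the cells that founded it. The labels do not say whether mouse cells remained in the isolated lines.

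Values were log2 signals, and the 312 genes had a median difference of -0.24 from control in M5, -0.03 in M1 and -0.01 in M4, while all 11963 genes had 0.03, -0.008 and -0.001. Of the 312, 166 had a mean above 6.20, the median signal of all genes, and are called the brighter genes here. The 4 cytokeratin genes KRT7, KRT8, KRT18 and KRT19, of the 6 epithelial markers, lay above that median, whereas EPCAM (3.23 to 3.71) and CDH1 (3.59 to 3.95) lay near the bottom of the scale on every array. None of 5 haematopoietic and none of 5 endothelial markers lay above the median, nor did 3 of 4 lung lineage markers, the exception being SFTPC. Among 6 fibroblast markers, COL1A1 and COL3A1 lay above it.

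The short arm of chromosome 3 is one of the regions of the genome most often lost in lung cancer and in clear cell kidney cancer. It carries a row of genes described as tumour suppressors, among them VHL, FHIT, RASSF1, PBRM1 and SETD2, and many housekeeping genes of translation, mitochondria and protein traffic. DNA was not measured on these arrays, and whether any of these cells lacked a copy of the arm was not tested. In such bulk RNA, fewer cells expressing a gene and less RNA per cell cannot be told apart.

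Start sites of the arm's genes were densely CpG-bearing, and sequences of a few of them are printed here because they show the kinds of promoter behind the values that follow. All are from RefSeq, assembly GRCh38.p14, written 5′ to 3′ with every CpG in capitals. The first pair are the 250 bases before the start of ROBO1 (chr3:79767999-79768248, minus strand, 9 CpG), the gene lowest in M5 relative to control, and of DHX30 (chr3:47802888-47803137, plus strand, 38 CpG), whose M5 arrays lay close together. They were chosen after their values were seen.

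ROBO1: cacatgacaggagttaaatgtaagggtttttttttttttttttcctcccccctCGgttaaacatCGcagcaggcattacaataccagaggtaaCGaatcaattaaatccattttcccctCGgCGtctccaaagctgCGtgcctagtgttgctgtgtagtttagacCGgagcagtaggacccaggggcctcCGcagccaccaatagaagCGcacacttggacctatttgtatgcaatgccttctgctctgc
DHX30: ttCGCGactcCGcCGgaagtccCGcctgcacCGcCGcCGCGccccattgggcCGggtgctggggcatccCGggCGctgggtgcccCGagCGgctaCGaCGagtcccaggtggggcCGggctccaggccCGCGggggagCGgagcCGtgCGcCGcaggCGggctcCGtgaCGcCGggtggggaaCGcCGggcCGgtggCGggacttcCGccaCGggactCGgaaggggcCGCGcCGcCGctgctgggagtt

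The other 5 are the stretches between a pair of genes that start back to back within 250 bases of each other, read on the plus strand. They lie between TADA3 and ARPC4 (chr3:9792474-9792517), XPC and LSM3 (chr3:14178602-14178816), ZDHHC3 and EXOSC7 (chr3:44976175-44976243), CCDC51 and TMA7 (chr3:48440120-48440256), and NPRL2 and CYB561D2 (chr3:50350776-50350861). The gene records of TADA3 and CCDC51 run past these starts, so other starts of those genes lie inside the partner gene.

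TADA3-ARPC4: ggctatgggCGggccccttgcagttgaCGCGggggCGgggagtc
XPC-LSM3: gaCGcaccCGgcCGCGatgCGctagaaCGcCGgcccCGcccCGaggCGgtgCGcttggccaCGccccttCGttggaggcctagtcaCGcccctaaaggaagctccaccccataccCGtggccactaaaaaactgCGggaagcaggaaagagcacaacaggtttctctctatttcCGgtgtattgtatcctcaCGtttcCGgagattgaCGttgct
ZDHHC3-EXOSC7: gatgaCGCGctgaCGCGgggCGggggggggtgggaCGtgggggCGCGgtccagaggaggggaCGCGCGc
CCDC51-TMA7: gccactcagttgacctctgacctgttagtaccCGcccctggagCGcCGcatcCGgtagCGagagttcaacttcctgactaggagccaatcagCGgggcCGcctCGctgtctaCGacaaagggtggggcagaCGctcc
NPRL2-CYB561D2: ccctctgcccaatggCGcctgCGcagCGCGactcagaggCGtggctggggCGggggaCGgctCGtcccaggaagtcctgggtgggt

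A promoter was found for 275 of the 312 genes. They held a median of 20 CpG in 250 bases, and 77.1% held 10 or more. The 9562 genes of the array with a promoter had a median of 19 CpG and 74.4%, and all 27305 promoters of the table had 11 and 51.9%. The GC box GGGCGG, searched on both strands, was in 63.3% of the arm's promoters, 60.6% of those of the array's genes and 42.3% of all promoters. The arm's genes thus resembled the genes of the array in these counts. The 212 genes with 10 or more CpG had a median M5 difference of -0.34 and the 63 with fewer had 0.09, but the classes also differed in signal, with a median of 6.93 against 4.86. Among the brighter genes alone, the 128 with 10 or more CpG had -0.52 and the 19 with fewer had -0.40.

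On single arrays, the median difference of the 312 genes from control was -0.24 in M5 replicate 1, -0.27 in replicate 2 and -0.18 in replicate 3. It was -0.02, -0.04 and -0.03 on the M1 arrays and -0.02, -0.01 and 0.02 on the M4 arrays. Each control array, set against the mean of the other 3, gave between -0.01 and -0.003. All arrays of control, M1 and M4 thus stayed near 0, and no M5 array did.

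**Figure D1:**
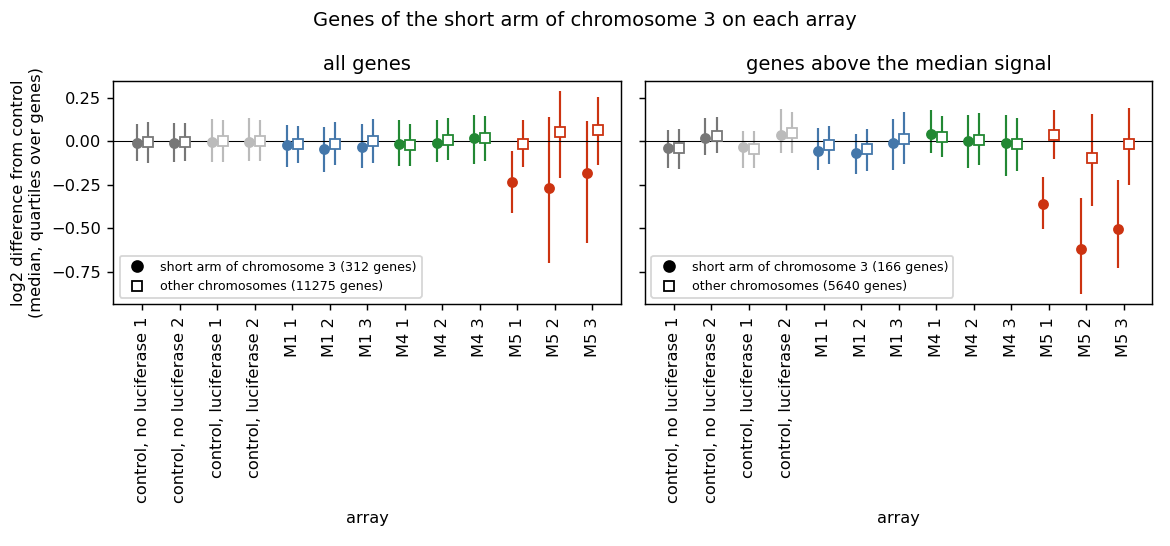
Median log2 difference from control (points) with quartiles over genes (lines) on each of the 13 arrays, for all genes on the left and the brighter genes on the right. Filled circles are genes of the short arm of chromosome 3 and open squares genes of other chromosomes; control arrays are set against the other 3. On the right, the filled circles of M5 sit at -0.36, -0.62 and -0.50, and those of the other arrays near 0.

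Among the 166 brighter genes the median M5 difference was -0.50 on the log2 scale, that is 1.42-fold lower, and 155 of the 166 were lower than control. M5 replicate 1 had a median of -0.36 with 152 genes below the control mean, replicate 2 had -0.62 with 153, and replicate 3 had -0.50 with 146. The quartiles of replicate 1 (-0.50 and -0.20) spanned less than those of replicate 2 (-0.88 and -0.33) and replicate 3 (-0.73 and -0.22). M1 had -0.04 and M4 0.01 over the same genes.

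All 3 M5 arrays lay below all 4 control arrays for 117 of the 312 genes (37.5%), of which 104 were among the 166 brighter ones. The background for this count was 6.3% of all 11963 genes, and the rule that chose the arm used the same arrays, so nothing is read from the excess. For 89 genes the M5 arrays also lay below the 6 arrays of M1 and M4, against 3.1% of all genes, and for 1 gene they lay above all 10 other arrays, against 1.87%. Only 4 genes had all M5 arrays above all controls, against 5.88% of all genes. These were LINC00312, CCK, VIPR1 and TGM4, none of them a brighter gene, with differences of 0.43, 0.31, 0.42 and 0.33.

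In the limma fit over all genes, 60 of the 312 genes (19.2%) were below control in M5 at an adjusted p under 0.05 and 0 were above it. The background was 1.85% of all genes below and 0.527% above. On the rest of chromosome 3, 81 genes (23.7%) were below control by the same test. Since the arm was chosen on these values, the counts of 60 and 0 only describe it. Nothing is read from their difference from the background. The count of 60 leaned on every array of the contrast. It was 151 without M5 replicate 1 (27 above control and 124 below), 14 without M5 replicate 2 and 15 without M5 replicate 3. Leaving out replicate 1 or 2 of the control without luciferase gave 22 and 25, and leaving out replicate 1 or 2 of the control with luciferase gave 21 and 20. With the replicate number as a block the count was 29, and with the groups of arrays described next as a block it was also 29.

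Signals of the 62 Affymetrix control probe sets fell into 4 groups of arrays that the labels do not mention. M5 replicates 2 and 3 formed a group of their own, so for these arrays the group and the line cannot be told apart. M5 replicate 1 shared a group with replicate 2 of both kinds of control, M1 replicate 1 and M4 replicate 1. Against the 2 controls of that group alone, the 312 genes had a median of -0.23 in M5 replicate 1 with 253 genes lower (81.1%). The brighter genes had -0.39, with 157 of 166 lower. Brighter genes of all chromosomes had a median of -0.00 in the same comparison, and the arm's brighter genes had -0.07 in M1 replicate 1 and 0.01 in M4 replicate 1.

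The difference between M5 arrays also followed the signal. With all genes cut into 4 equal classes by their mean signal, the arm's genes in M5 replicate 1 had medians of -0.07, -0.17, -0.32 and -0.39 from the lowest class to the highest. In replicate 2 the medians were 0.13, 0.08, -0.60 and -0.65, and in replicate 3 they were 0.10, 0.08, -0.48 and -0.52. All genes of the array moved with signal in replicates 2 and 3 too, from 0.13 and 0.20 in the lower classes to -0.08 and -0.14 in the upper ones of replicate 2. The part of this array-wide trend in the values of single genes was not tested. The share of the arm's genes with M5 below all controls was 5.97%, 11.4%, 52.6% and 76.8% from the lowest class to the highest, and that of all genes was 2.24%, 3.34%, 7.69% and 11.9%.

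**Figure D2:**
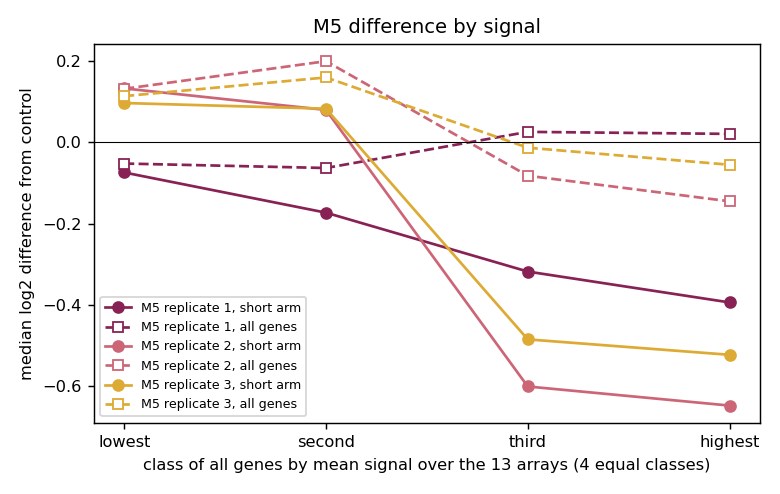
Median log2 difference from control in each M5 array, over 4 equal classes of all genes by mean signal, for the arm's genes (filled, solid lines) and all genes (open, dashed lines). The filled lines end at -0.39, -0.65 and -0.52 in the highest class, below the dashed lines, which end between -0.14 and 0.02.

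ROBO1, the receptor for SLIT guidance cues, had the lowest M5 value relative to control of any gene on the arm. Its log2 signal was 6.61 and 6.54 in the control without luciferase and 6.48 and 6.49 in the control with it. In M1 it was 6.07, 6.91 and 6.18, in M4 6.11, 6.26 and 5.98, and in M5 4.59, 4.47 and 4.83. The M5 arrays lay below the other 10 with no overlap, while the M1 arrays spread on both sides of the controls. The difference was -1.90 ± 0.18 (limma SE, 3 against 4 arrays), or 3.73-fold lower in M5.

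STAC, an adaptor protein of calcium channels, was lower in all M5 arrays but by unequal amounts. Control arrays lay between 7.77 and 7.94 and the M5 arrays at 7.28, 6.02 and 6.70, a mean difference of -1.16 ± 0.21. CEP15, a centrosomal protein, had control signals of 10.01, 9.82, 9.96 and 9.67 and M5 signals of 9.09, 8.70 and 8.58. TASOR, a subunit of the HUSH silencing complex, had 9.46, 9.30, 9.49 and 9.06 in control and 8.78, 7.95 and 8.04 in M5. Both had a mean difference of -1.07. In TASOR the M4 arrays also reached low, to 8.51 in replicate 3, so that M5 replicate 1 lay among them.

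CAPN7, a calpain of the endosomal sorting pathway, differed by -1.05 ± 0.19 in M5, with array values of -0.44, -1.45 and -1.25. GBE1, the glycogen branching enzyme, lay between 9.86 and 9.98 in control and between 9.84 and 10.00 on the M1 and M4 arrays. In M5 it was 9.56, 8.75 and 8.60. The gene was thus level across 10 arrays and below all of them in M5, with replicate 1 the nearest. RAB5A, the small GTPase of early endosomes, lay between 9.32 and 9.48 in control and at 8.81, 8.24 and 8.26 in M5, a difference of -0.93 ± 0.14.

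NKTR, a cyclophilin-related protein, differed by -0.93 in M5, but its controls were spread between 7.31 and 8.28. OGG1, the glycosylase that removes oxidised guanine from DNA, had control signals of 7.22, 6.96, 7.04 and 6.97 and M5 signals of 6.29, 6.38 and 5.75. SLC25A38, the mitochondrial glycine carrier of haem synthesis, lay between 7.73 and 7.85 in control and at 7.38, 6.64 and 6.72 in M5. UBP1, a transcription factor, differed by -0.89, with M5 replicate 1 at 7.92 only just below the lowest control at 7.94. DHX30, an RNA helicase of mitochondrial ribosome assembly, differed by -0.86 ± 0.14, and its M5 arrays lay at 8.48, 8.26 and 8.46 against 9.14 to 9.42 in control.

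**Figure D3:**
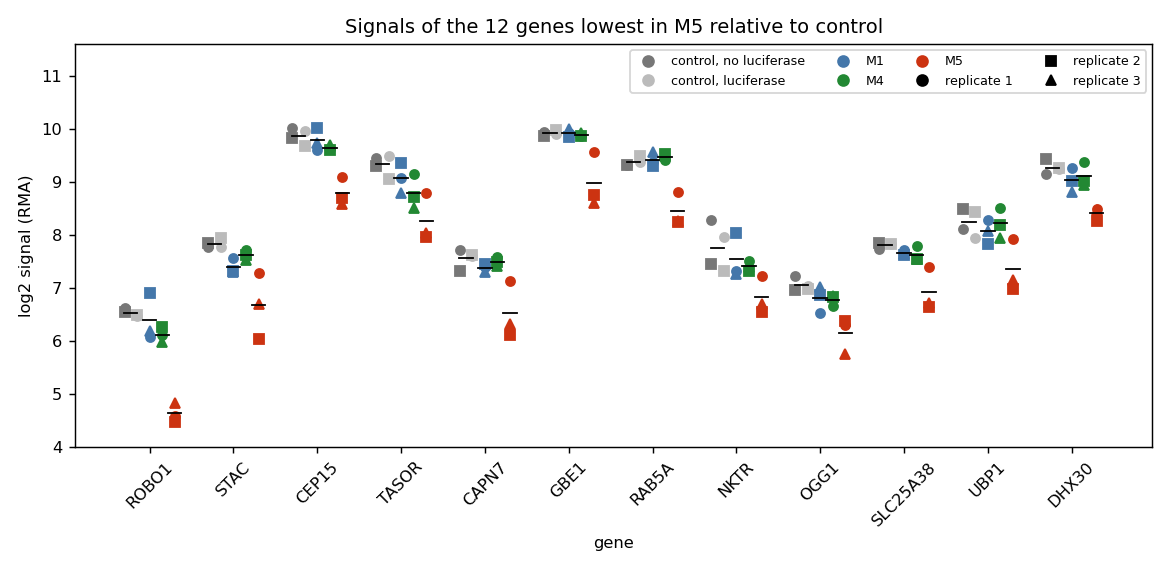
RMA log2 signal of 12 genes of the arm on all 13 arrays. They are the lowest in M5 relative to control among genes with all M5 arrays below all 4 controls. Their higher group mean also had to lie above the median signal of all genes. CTNNB1, at -1.34, was left out by the first condition. Colours are groups, shapes are replicate numbers and bars are means of all controls, M1, M4 and M5. ROBO1 goes from 6.53 in control to 4.63 in M5. The M5 points lie below the 4 control points in every gene because the genes were picked that way.

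The M5 arrays did not move as one for every gene. CTNNB1, which encodes beta-catenin, had a mean difference of -1.34 ± 0.44, made of 0.14 in replicate 1, -1.71 in replicate 2 and -2.46 in replicate 3. NEK4, a kinase of the NIMA family, had 0.11, -2.04 and -1.25. SACM1L, a phosphoinositide phosphatase, had 0.20, -1.29 and -1.13. In each of these genes M5 replicate 1 was level with control and the other M5 arrays were far below. With the groups of arrays by control probe sets as a block, their M5 differences turned to 0.07 in CTNNB1, 0.01 in NEK4 and 0.22 in SACM1L. APPL1, an adaptor of early endosomes, had the same layout, with 0.03, -1.29 and -1.24, as did UBA3, a subunit of the NEDD8-activating enzyme, with -0.01, -0.98 and -0.83. APPL1 was picked after its values were seen.

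Other genes had close values on all M5 arrays. PBRM1, a subunit of a SWI/SNF remodelling complex, had -0.52 in replicate 1, -0.62 in replicate 2 and -0.59 in replicate 3. CGGBP1, which binds CGG repeats, had -0.69, -0.60 and -0.65. DALRD3, a tRNA methylation factor, had -0.74, -0.79 and -0.86, and P4HTM, a prolyl hydroxylase of the endoplasmic reticulum membrane, had -0.65, -0.76 and -0.66. DALRD3 and P4HTM were also picked after their values were seen. By the probe sets used, replicate 1 was as low as the others in these 4 genes, unlike the gap in CTNNB1 and NEK4. Dimmer probe sets did not repeat this. That of DALRD3 gave -0.04, -0.85 and -0.39, with replicate 1 level with control. That of CGGBP1 gave -0.32, 0.12 and 0.35, and that of PBRM1 -0.13, -0.07 and -0.04.

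There were 9 back-to-back pairs on the arm, and in 5 of them both genes were brighter genes. All 10 genes of these 5 pairs were below the control mean on each M5 array, as were 152, 153 and 146 of the 166 brighter genes on the 3 arrays, so the pairs did not stand apart. XPC had -0.50, -0.88 and -0.62 and its partner LSM3, a subunit of an RNA-binding ring of the spliceosome and of mRNA decay, had -0.38, -0.51 and -0.19. NPRL2 had -0.37, -0.44 and -0.68, and CYB561D2, a cytochrome of the same tumour suppressor region, had -0.34, -0.32 and -0.37. For NPRL2 this holds for 1 probe set only, since its other one, also above the median signal, gave 0.15, 0.59 and 0.60. The smallest differences of the 5 pairs were those of LSM3 in replicate 3 and of EXOSC7, an exosome subunit, in the same array (-0.22).

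A list of 24 genes of the arm named as tumour suppressors in lung and kidney cancer had a median M5 difference of -0.12, against 0.03 for all genes, and 19 of 24 were lower. Only 10 of the 24 were brighter genes, with a median of -0.42. The share with M5 below all controls was 6.3% of all genes, 37.5% of the arm's genes and 62.7% of its brighter genes. Counts of this kind in this list and the lists below are to be set beside these shares, and nothing is read from them. Among the 24, M5 lay below all controls in 4, ROBO1, PBRM1, CYB561D2 and NPRL2. The last, a subunit of the GATOR1 complex that restrains mTORC1, had -0.50 ± 0.10 by the probe set used and 0.44 by its other one. VHL, the substrate subunit of a ubiquitin ligase that degrades hypoxia-inducible factors, had -0.08 ± 0.12 and RASSF1, a Ras-association scaffold, had -0.09 ± 0.14. FHIT, a diadenosine hydrolase that spans a fragile site, had -0.14 ± 0.11. None of these 3 was a brighter gene, and in all 3 the M5 arrays overlapped the controls.

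SETD2, the methyltransferase that marks histone H3 in transcribed genes, differed from control by -0.05, -0.73 and -0.78 on the M5 arrays. By this probe set M5 replicate 1 lay inside the control range. The dimmer probe sets of SETD2 gave -0.46, -1.30 and -0.68, and -0.34, -0.70 and -0.77, so replicate 1 was lower by both. TGFBR2, a receptor for TGF-beta, had signals of 6.59, 7.26, 6.96 and 7.30 in control and 6.12, 6.61 and 6.59 in M5. Its mean difference was -0.59 ± 0.19, the groups overlapped at the lowest control, and a dimmer probe set gave 0.09. SEMA3F, a secreted guidance cue, went the other way at 0.27 ± 0.12, with M5 values of -0.02, 0.38 and 0.44 relative to control, and its other probe sets gave -0.14 and, with a dimmer signal, 0.35. LIMD1, a scaffold of junctions and of microRNA silencing, had -0.53 ± 0.24, and 0.21 by a dimmer probe set.

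The list of chromatin and transcription regulators held 25 genes, with a median M5 difference of -0.31, and 21 were lower. SUCLG2, a subunit of succinyl-CoA ligase, TBC1D5, of vesicle traffic, and CRBN, a receptor of a ubiquitin ligase, are in the list but do not act as such regulators. M5 lay below all controls in 9 genes, among them SMARCC1, a core subunit of SWI/SNF complexes, at -0.61. MITF, a transcription factor of the melanocyte and lysosomal programmes, lay between 7.69 and 7.90 in control and at 7.32, 6.98 and 7.32 in M5. NR1D2, a nuclear receptor of the circadian clock, had -0.66 ± 0.15. TOP2B, a topoisomerase, lay between 8.21 and 8.27 in control, and its M5 values relative to control were -0.11, -1.03 and -1.23. The controls of TOP2B were nearly identical, so that even the small difference of replicate 1 lay outside their range.

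The DNA repair list held 7 genes with a median of -0.67, and 6 were lower, 5 of them with M5 below all controls. XPC, which recognises damage in nucleotide excision repair, had control signals of 8.70, 8.65, 8.66 and 8.80 and M5 signals of 8.20, 7.82 and 8.08. PARP3, an ADP-ribosyltransferase that acts at strand breaks, had -0.63. CDC25A in this list is a cell cycle phosphatase and NEK4 a kinase. RAD54L2 was the member that was not lower, at 0.13.

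Kinases, small GTPases and signalling adaptors numbered 18, with a median of -0.48, and 10 had M5 below all controls. MYD88, the adaptor of Toll-like and interleukin-1 receptors, had 7.98, 8.19, 7.82 and 7.89 in control and 7.24, 7.08 and 7.28 in M5, a difference of -0.77 ± 0.10. ITPR1, a calcium channel of the endoplasmic reticulum, had -0.83 ± 0.17, and OXSR1, a kinase that controls chloride transport, had -0.66. ARF4, a GTPase of the Golgi, had -0.70. RHOA, a GTPase of the actin cytoskeleton, lay between 12.29 and 12.39 in control and at 12.14, 11.65 and 11.87 in M5. ITPR1, MAP4 and TNNC1 are in this list but are not kinases, small GTPases or adaptors.

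The 22 receptors and secreted ligands had a median of 0.08, with 9 lower, and only 4 of them were brighter genes. The lowest of the list was ROBO1 and the next was PTPRG, a receptor phosphatase whose difference was -0.75 ± 0.21. Neither was a brighter gene. WNT5A, a ligand of noncanonical Wnt signalling, lay between 8.39 and 9.36 in control and at 9.20, 8.42 and 7.68 in M5, so the groups overlapped, and the control probe set groups as a block turned its difference from -0.53 to 0.57. Of the 13 genes of the chemokine receptor cluster and other immune genes, 12 were not brighter genes, and their list had a median of 0.17. The exception was CMTM6, a membrane protein that stabilises PD-L1, which had 9.42, 9.54, 9.68 and 9.61 in control and 9.20, 8.98 and 9.17 in M5. The adhesion and matrix list of 14 genes had a median of -0.02, with M5 below all controls in 1, NISCH.

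All 9 genes of the translation list were brighter genes and all were lower, with a median of -0.41. By the probe sets used, the ribosomal proteins had the smallest differences, with RPL14 at -0.07, RPL29 at -0.21 and RPL32 at -0.24. RPL14 lay at 12.98, 13.19 and 13.26 in M5 against 13.11 to 13.30 in control, so its groups overlapped by this probe set. Its other probe sets, also above the median signal, gave -0.26 and -0.27. LARS2, the mitochondrial leucyl-tRNA synthetase, had -0.72 ± 0.16, and RRP9, a protein of the U3 particle that processes ribosomal RNA, had -0.66 ± 0.14. IMPDH2, which makes guanine nucleotides and is not itself a translation factor, had 12.28, 12.34, 12.26 and 12.45 in control and 11.92, 11.74 and 11.85 in M5. UBA3 and NISCH in this list do not act in translation either.

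Mitochondrial and metabolic genes numbered 22, of which 19 were lower and 13 had M5 below all controls. The list held 19 brighter genes, and 62.7% of the arm's brighter genes had M5 below all controls. The median of the 22 was -0.54. GPX1, a glutathione peroxidase, had 11.58, 11.35, 11.45 and 11.34 in control and 10.88, 10.57 and 10.86 in M5. ALAS1, the first enzyme of haem synthesis, had 9.56, 9.52, 9.43 and 9.40 in control and 8.93, 8.60 and 8.80 in M5. Both had M5 arrays clear of all 10 others. ABHD5, a cofactor of triglyceride lipase, had -0.75, and NDUFAF3, an assembly factor of respiratory complex I, had -0.59.

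The ubiquitin and protein traffic list of 21 genes, 17 of them brighter genes, had a median of -0.52, with 19 lower and 10 below all controls. USP4, a deubiquitinase, had 6.80, 6.80, 6.89 and 7.13 in control and 6.50, 6.05 and 6.05 in M5. UBE2E1, a ubiquitin-conjugating enzyme, had 10.64, 10.79, 10.70 and 10.68 in control and 10.15, 9.92 and 9.97 in M5, while its M1 and M4 arrays lay between 10.66 and 10.78. SEC13, a coat protein of the secretory pathway and the nuclear pore, had -0.46. UBP1, in this list by its name, is a transcription factor and no ubiquitin protease, and SNRK in this list is a kinase.

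Of the 166 brighter genes, 11 were not lower in M5. The highest of them were GRIP2, a scaffold of glutamate receptors (0.42), and PPARG, the nuclear receptor of fat cell differentiation (0.35). PLCD1 had 0.35, SLC22A14 0.33, SEMA3F 0.27, TRAK1 0.20 and RAD54L2 0.13. For TRAK1 the 3 other probe sets all gave values below 0, the brightest -0.19. For CTDSPL the further probe sets, all dimmer, went both ways, with -0.455, -0.487, 0.745 and 0.060. The other four, CTDSPL, TCTA, RNF123 and CCDC71, lay at 0.05, 0.05, 0.05 and 0.03. CTDSPL, PLCD1 and SLC22A14 start close together between 37.9 and 38.3 Mb, and CCDC71, TCTA, RNF123 and SEMA3F between 49.2 and 50.2 Mb, with genes that were lower among them.

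Along the arm, the median of the brighter genes in M5 replicate 1 lay between -0.26 and -0.39 in the 8 stretches of 10 Mb that held at least 3 of them. At the tip (0 to 10 Mb, 13 genes) the medians were -0.37, -0.44 and -0.29 on the M5 arrays. Between 20 and 30 Mb (7 genes) they were -0.35, -0.90 and -0.74, and between 60 and 70 Mb (9 genes) -0.26, -0.84 and -0.71. Between 40 and 50 Mb, where 55 of the brighter genes lie, they were -0.39, -0.70 and -0.48. Every one of these stretches was below 0 on each M5 array.

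**Figure D4:**
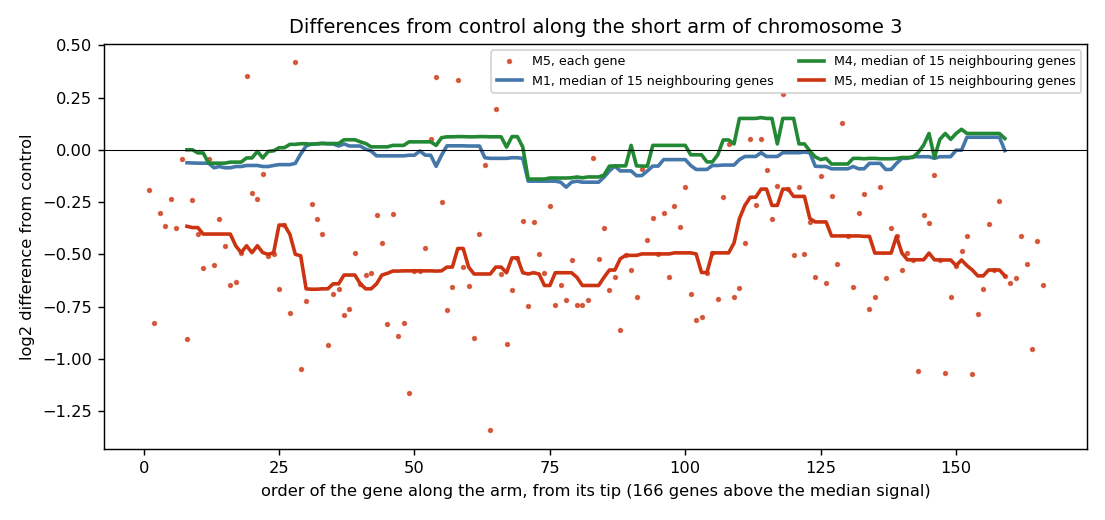
Log2 difference from control of the 166 brighter genes in their order along the arm, from the tip; red points are single genes in M5 and lines are medians of 15 neighbouring genes in M1, M4 and M5. The M5 line stays below 0 over the whole arm, while the M1 and M4 lines stay between -0.20 and 0.20.

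The genes next to the limit of 90 Mb were too few, and in part too dim, to show whether values changed there. The last genes inside it were EPHA3, an ephrin receptor at 0.00, ZNF654 at 0.02 and CGGBP1 at -0.65. EPHA3 and ZNF654 had low control means of 3.98 and 4.23, and ZNF654 was split over the M5 arrays (0.49, -0.26 and -0.18). The first genes outside, across the centromere, were PROS1 at -0.37, NSUN3 at -0.40 and CRYBG3 at -0.34. In M5 replicate 1 alone these had -0.05, -0.46 and 0.06. Brighter genes of the rest of chromosome 3 had a median of -0.60 in M5, with 167 of 169 lower. The other 22 chromosomes had medians between -0.16 (chromosome 4) and 0.06 (chromosome 19) over their brighter genes. In M5 replicate 1 alone they lay between -0.03 and 0.13.

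**Figure D5:**
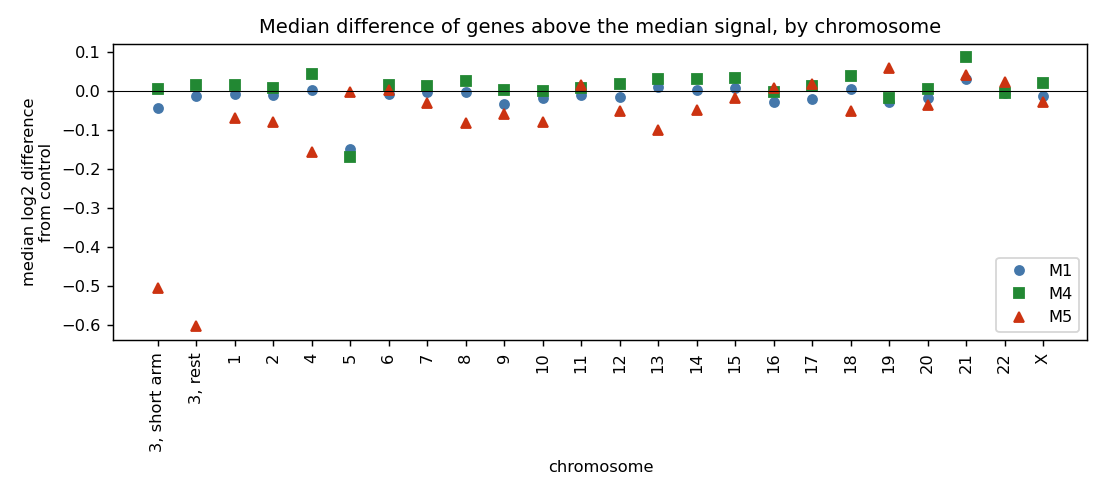
Median log2 difference from control over the brighter genes of each chromosome, with chromosome 3 split at 90 Mb; circles are M1, squares M4 and triangles M5. The M5 triangles of chromosome 3 sit at -0.50 and -0.60, and those of other chromosomes between -0.16 and 0.06.

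Other probe sets of the same genes gave a second reading within the same arrays. Of the 312 genes, 105 had more than 1 probe set, which gave 164 further values with a median of -0.22 in M5, and 113 of them were lower. Of those, 61 from 45 genes had a mean above the median signal, with a median of -0.39 and 58 lower. RAB5A had -0.99 by its other probe set, TASOR -0.95, CAPN7 -0.93, DHX30 -0.80 and OGG1 -0.60. NKTR was uneven, with -0.25 and -0.71. In 5 of the 61 the sign was opposite to that of the probe set used. These were IL17RC (0.13 against -0.04), NPRL2 (0.44 against -0.50), SEMA3F (-0.14 against 0.27), TRAK1 (-0.19 against 0.20) and VGLL4 (0.05 against -0.49).

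In M1, no gene of the arm differed from control after adjustment over all genes. Limma called 3 of the 11963 genes above control (0.0251%) and 0 below (0.0%), none of them on the arm. At an unadjusted p under 0.05 it found 11 of the arm's 312 genes, against 3.08% of all genes. All M1 arrays lay below all controls for 19 genes of the arm and above for 6, against 3.59% and 2.35% of all genes. Differences in M1 ran from -0.49 to 0.91.

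In M4, the same test called 8 genes above control (0.0669%) and 3 below (0.0251%), and again none was on the arm. Unadjusted, 20 of the 312 genes passed, against 6.91% of all genes. All M4 arrays lay below all controls for 17 genes of the arm and above for 23, against 5.53% and 5.92%. The 36 genes chosen by the naming rule, whose M5 values are mostly given above, lay between -0.57 and 0.31 in M4 and between -0.43 and 0.19 in M1. M1, M4 and M5 were set against the same controls, so their differences are not independent.

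The gene nearest to the threshold in M4 was ERC2, a scaffold protein of the presynaptic active zone, which was not a brighter gene. Its signal was 4.07 and 3.97 in the control without luciferase, 4.45 and 4.08 in the control with it, and 5.27, 5.89 and 5.77 in M4. M1 had 5.05, 5.26 and 4.86, and M5 had 5.14, 5.19 and 3.90. Every M1 and M4 array was above every control, and M5 was split. The M4 difference was 1.50 ± 0.27 (SE), or 2.83-fold, with a limma adjusted p of 0.0771, and the M1 difference was 0.91 ± 0.27 with an adjusted p of 1. Over 22 alternative settings the adjusted p for M4 ran from 0.00385 to 0.572, and 4 of them called it. These included leaving out M5 replicate 1 or M5 replicate 3, arrays that enter only through the shared estimate of spread.

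M4 against M1 directly gave no call on the arm, where limma called 1 gene above (0.00836%) and 2 below (0.0167%) over the array. Unadjusted, 12 of the arm's genes passed, against 2.83%. The lowest p was that of DCP1A, an mRNA decapping cofactor, at 0.40 ± 0.12 with a limma adjusted p of 1. The control with luciferase against that without gave no call over the array in either direction (0.0%), with 154 genes unadjusted (1.29%), of which 1 was on the arm. This was TRANK1, at -0.45 ± 0.20 with a limma adjusted p of 1.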

How the data were processed

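RNA of 13 samples was measured on 13 Affymetrix arrays, and the authors deposited log2 signals of 22277 probe sets, made with RMA per the submitters' processing notes. For software versions and hybridisation batches, the sources used here give nothing. RMA pulls low signals together, so differences of dim genes can be understated. Of the probe sets, 62 are Affymetrix controls and were left out of the tests, 19064 name 1 gene, 1043 name several and 2108 list none. Taking the probe set with the highest mean per gene gave 11963 genes, of which 11953 were placed by RefSeq (GRCh38.p14); dim genes were kept. The number of arrays limits the precision.

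Group means were fitted with limma (3.58.1, in R 4.3.3; lmFit and eBayes) over all 13 arrays, with control as the mean of its 2 kinds and Benjamini-Hochberg adjustment over all genes at 0.05. All p-values printed are limma's, two-sided, and measure only the spread between these arrays, since the labels do not say how the replicates were grown. Errors after ± are limma's standard errors unless marked SD, and a fold is 2 raised to the log2 difference. The standard errors use a spread per gene shared by all groups, not that of the M5 arrays alone. Array groups came from Ward clustering of the control probe sets (scipy 1.17.1). The fit was tested on simulated data.

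The arm and the gene lists were chosen with earlier results of these data known. The lists are broad, and not every member that acts outside the name of its list is pointed out. By the naming rule, values were given for the 12 genes lowest in M5 relative to control among those with all M5 arrays below all controls and the higher group mean above the median signal, the 6 highest by the mirrored condition (0 met it), 2 to 4 per list, 1 per 10 Mb and those next to 90 Mb; other names were chosen after their values were seen. Alternatives covered the block, the arrays fitted, the normalization, the signal limit, the choice of probe set, the controls and each array left out.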

Additional observations from a re-analysis of the deposited data

How the results depend on the processing

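The number of genes of the arm called in M5 was 60 and ranged from 14 to 151 when single arrays were left out. It was 29 with the replicate number as a block and 29 with the groups of arrays by control probe sets as a block, 3 with only the arrays compared, 12 at an adjusted p under 0.01, 5 with an added 2-fold change, 11 against the control without luciferase alone and 13 against that with luciferase alone. The cause was not tested. In M4 the count was 0 and became 1 (ERC2) with only the arrays compared and with an intensity trend and robust prior, and ranged from 0 to 1 over single arrays left out. The counts for M1, for M4 against M1 and for luciferase stayed at 0 under every alternative run, the replicate block included.

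The arm's M1 median of -0.027 was -0.039 with the replicate block, -0.038 with the control probe set groups as a block, -0.043 over brighter genes, -0.017 after quantile normalization, -0.039 against the control with luciferase alone and -0.04 for M1 replicate 2 against the controls of its own group. Without single arrays it ranged from -0.038 (without M1 replicate 1) to -0.022. The M4 median became -0.025 after median centring. Over brighter genes alone, the M5 median of -0.242 became -0.505, and those of M5 replicates 1, 2 and 3 became -0.363, -0.62 and -0.504. The median of M5 replicate 2 was -0.216 with the mean of all probe sets of a gene. By M5 replicate 1 alone, an alternative chosen after seeing the data, 187 genes lay below all 4 controls, against 117 by all M5 arrays. A single array falls below all controls more easily than several arrays together, so these counts are not on the same scale. The share of all genes was not computed for the single array. Of 754 values of the 36 named genes under the alternatives, 723 moved by less than 1 SD, 26 by more, and 5 turned in sign. The SD was that of the gene's 3 M5 arrays, so it was widest where these arrays disagreed. Leaving out an M1 or M4 array cannot change an M5 difference, so part of the 723 could not have moved. The count is therefore no measure of robustness. With the control probe set groups as a block, CTNNB1 turned to 0.068, NEK4 to 0.014, WNT5A to 0.565 and SACM1L to 0.224; M5 replicates 2 and 3 have no control in their group, so this fit sets only M5 replicate 1 against arrays of other groups of cells. LAMB2 turned to 0.026 against the control without luciferase alone.

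Same-numbered arrays deviated together only in part. Over 23 pairs, the correlation of their deviations from the group means ran from -0.51 to 0.53, 7 pairs exceeded 0.1, and 8 of 13 arrays correlated best with an array of their own number, which is a hint from the data and not the design, and as not every pair exceeded 0.1 the numbers are not used as a pairing.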
